A study of Mus musculus with 6 samples.

Results

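Cyclins, cyclin-dependent kinases (CDKs) and CDK inhibitors were followed in freshly isolated muscle stem cells (MuSCs) with and without an intact *Sirt6* gene. The members were the protein-coding genes whose symbols carry the Ccn, Cdk or Cdkn stem followed by the family letter or number, which gave 51 of the 25166 genes in the expression table, namely 25 cyclins, 19 CDKs and 7 CDK inhibitors. *Cdk3* matched by name but is annotated as a polymorphic pseudogene and was left out. RNA-seq libraries were available for 3 Sirt6mKO and 3 control (Ctrl) samples of C57BL/6 mice. Sirt6mKO mice carry floxed alleles of *Sirt6* (exons 4 to 6 flanked by loxP sites) and the constitutively active Pax7-ICNCre, so that recombination takes place in Pax7-expressing cells and is inherited by all of their descendants. The labels call the controls wild type, whereas a legend of the study describes them as Cre-negative Sirt6 fl/fl mice, so that Cre itself by that account was present in the Sirt6mKO samples alone. Age is not part of the labels, and the same legend refers to mice of 12 weeks. Cells negative for Sca1, CD45 and CD31 were sorted for Integrin-a7 and CD34 or for a YFP reporter, and RNA came from 100 to 200 cells per library. A GFP reporter is a further option in the methods, which tie YFP to mice with Pax7-ICNCre. Cre-negative controls would then have needed another gate than YFP. The gate of each sample is not given in the paper, and a gate that differed by genotype could not be told apart from genotype. The labels list 3 samples per genotype without stating that they came from separate mice, and the methods speak of 2 biological replicates for RNA-seq. If libraries share a mouse, n = 3 overstates the replication, and all p-values here measure the spread between these samples, which might be technical.

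Cyclins are regulatory subunits that switch on CDKs and direct them to their substrates. In quiescent MuSCs, which rest under the basal lamina of the myofiber, D-type cyclins with CDK4 and CDK6 start the way into the cell cycle by phosphorylating the retinoblastoma protein, E- and A-type cyclins with CDK2 carry it through DNA replication, and B-type cyclins with CDK1 drive mitosis. INK4 proteins bind CDK4 and CDK6, Cip/Kip proteins bind complete cyclin-CDK complexes, and several of these inhibitors are known to hold satellite cells in quiescence. A separate set of cyclins and CDKs does not count divisions but phosphorylates RNA polymerase II, the Mediator complex or splicing factors.

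The value of a gene in a library is here called signal. No unit is given for it, and the spacing of low values looks like that of read counts scaled by one factor per library and then rounded, an inference on which the following read numbers and limits rest. Summed signal ranged from 2272307 to 2369973 per library, behind which would lie about 1267947 (Ctrl replicate 3) to 3211528 (Ctrl replicate 2) reads. A gene without a read has a signal of 0. When 3 reads are taken as the limit of a zero count, the level behind it could still correspond to a signal of up to 2.19 to 5.38, depending on the library. A mean signal of at least 5 over the 6 libraries was reached by 44 members and by 14227 genes in total, which were tested with limma on log2(signal + 1). The other 7 members, *Ccno*, *Cdkn2a*, *Cdk15*, *Ccnb1ip1*, *Ccnb3*, *Ccnd2* and *Cdk18*, had signals between 0 and 7 in every library and were not tested.

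Levels of different genes were compared as signal per kb of exon. *Ccnd1*, the D-type cyclin induced by growth factors, was the most abundant member in Ctrl with 173 ± 12.2 signal per kb (SD, n = 3), followed by *Ccni*, an atypical cyclin, with 172 ± 31.6, *Ccnl2*, a cyclin of splicing kinases, with 153 ± 5.50, and *Cdkn1c*, which encodes the Cip/Kip inhibitor p57, with 138 ± 88.6. The intervals of mean ± SD of these 4 genes in Ctrl touched or overlapped their neighbours in the order, and the order among them is not resolved by 3 libraries. *Ccnd1* lay above 97.6% of the 14216 tested genes with a known exon length. Of the 44 tested members, 30 were at or above the median level of these genes, which was 14.9 signal per kb. Genes of the later cell cycle were spread over the order, and some of them were near its low end. *Cdk1*, the mitotic kinase, had 1.42 ± 0.351 and *Ccnb1*, a mitotic cyclin, 2.77 ± 1.31 signal per kb in Ctrl. *Ccnb2*, also a mitotic cyclin, had a mean of 11.3 signal per kb in Ctrl. *Cdk2*, which acts in DNA replication, had a mean of 24.3 and lay above the median level.

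**Figure D1:**
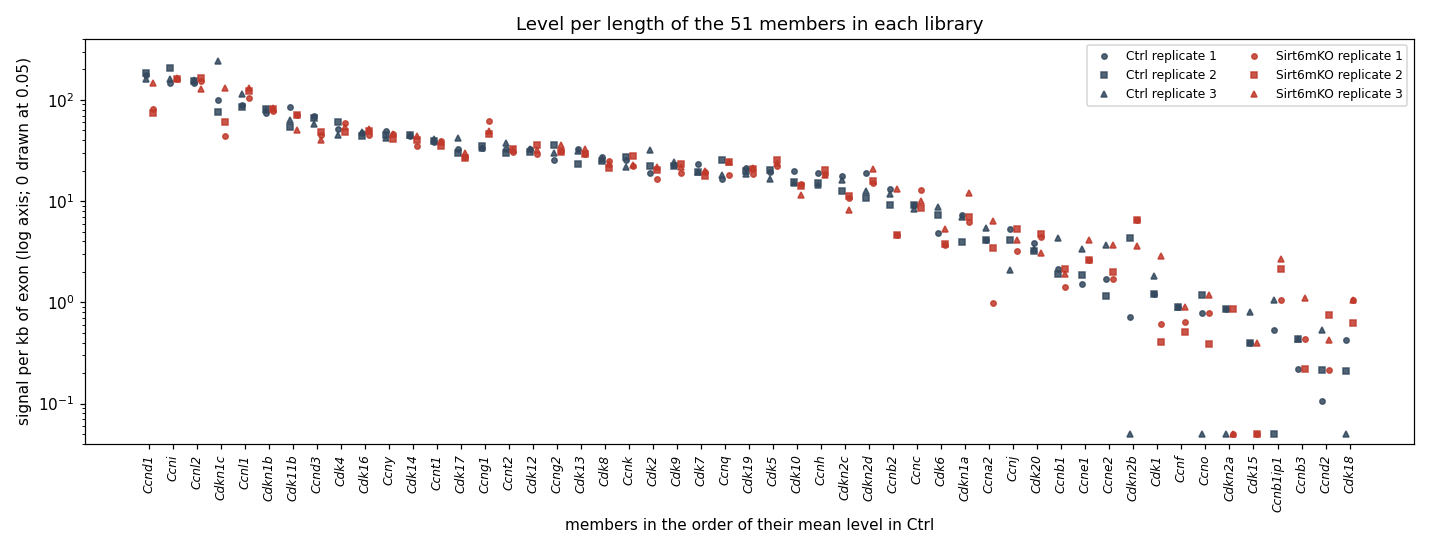
Signal per kb of exon (log axis) of all 51 members in each library, in the order of their mean level in Ctrl. Ctrl libraries are dark and Sirt6mKO libraries red, with a circle, square or triangle for replicate 1, 2 or 3, and zeros are drawn at 0.05. *Ccnd1* is first with a mean of 173 in Ctrl, and the members on the right that were not tested lie mostly near or below 1.

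In Sirt6mKO MuSCs, *Ccnd1* and *Ccnd3* were lower and *Ccng1*, a cyclin without a classical CDK partner, was higher than in Ctrl at an adjusted p of at most 0.05 (limma, Benjamini-Hochberg over all 14227 genes). None of these changes reached 2-fold. With both thresholds (adjusted p of at most 0.05 and 2-fold), 0 members were higher, against 1.57% of all tested genes, and 0 were lower, against 1.02%. At an unadjusted p under 0.05, 7 of the 44 members (15.9%) passed, against 18.1% of all tested genes. With the adjusted p alone, 1 member was higher (2.64% of all tested genes) and 2 were lower (1.88% of all tested genes). The 3 values of one genotype all exceeded those of the other in 2 members that were higher in Sirt6mKO, *Ccng1* and *Cdk5*, against 11.1% of all tested genes, and in 5 that were lower, *Ccnd1*, *Ccnd3*, *Cdkn2c*, *Cdk17* and *Cdk10*, against 10.1%. The median log2 fold change was -0.05 over the members (20 above and 24 below 0) and 0.00 over all tested genes, and 54.5% of the members and 54.2% of all genes moved by less than 0.25. As a whole, the members therefore moved about as much as genes in general, and the shares with separate groups were near or below the background. Without Sirt6mKO replicate 3, 12 of the 44 members (27.3%) had all Sirt6mKO values below all controls, against 14.3% of all tested genes, and without Ctrl replicate 1 these were 8 (18.2%), against 15.6%. With 3 against 3 libraries, an exact two-sided permutation test of a single gene cannot fall below 0.1.

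**Figure D2:**
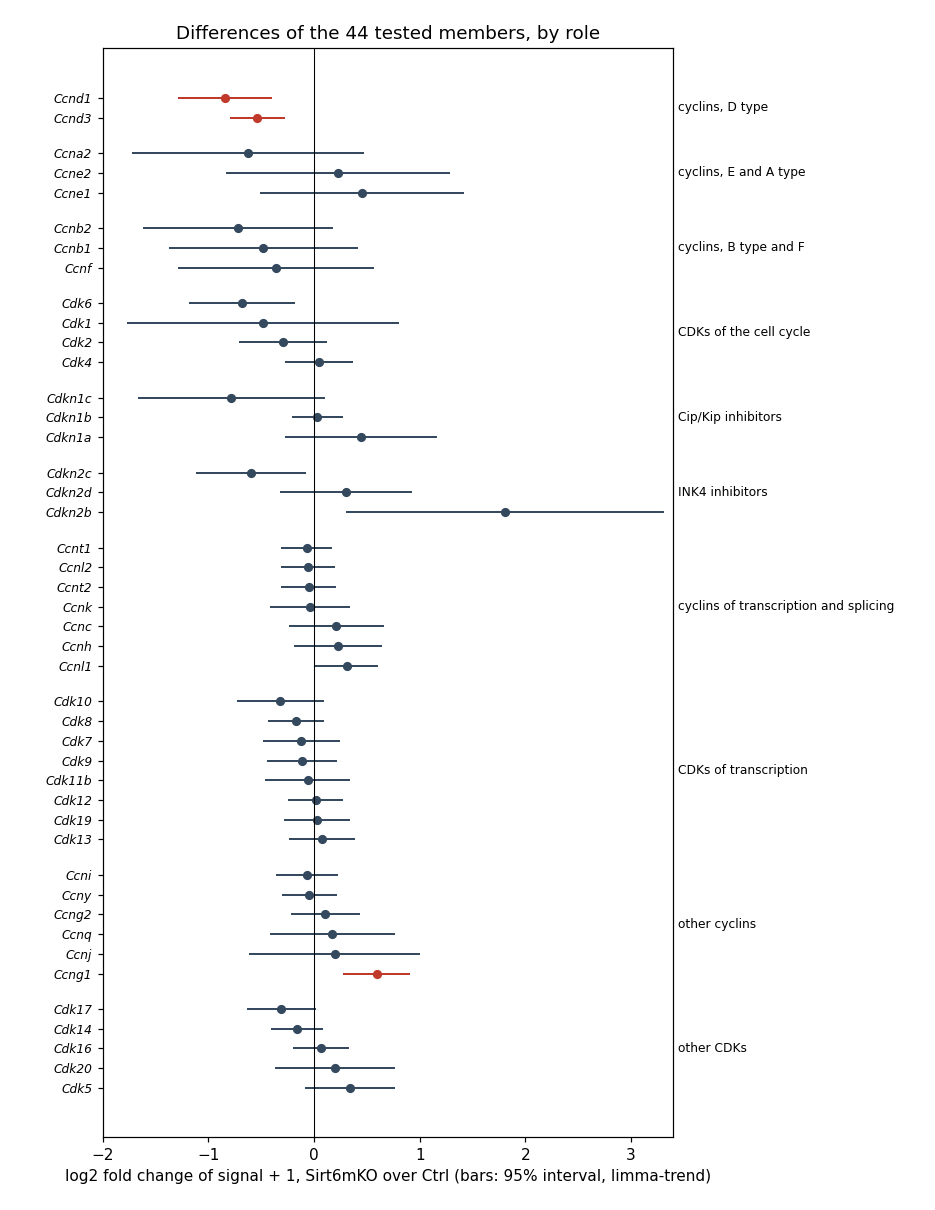
Log2 fold change of signal + 1 (Sirt6mKO over Ctrl) of the 44 tested members with the 95% interval of the limma fit, arranged by role. Red marks the 3 members with an adjusted p of at most 0.05, which are *Ccnd1* (-0.84), *Ccnd3* (-0.54) and *Ccng1* (0.59), and the low genes have the widest intervals.

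D-type cyclins sense mitogens and partner with CDK4 and CDK6. *Ccnd1* (ENSMUSG00000070348) lies on the minus strand of chromosome 7, at chr7:144929931-144939925 (GRCm38). It had signals of 383, 351 and 687 in Sirt6mKO replicates 1 to 3 and of 830, 860 and 749 in the Ctrl replicates. The groups did not overlap, but Sirt6mKO replicate 3 was close to the lowest control. The log2 fold change was -0.84 (SE 0.20, 0.557-fold, adjusted p = 0.033 with limma and Benjamini-Hochberg adjustment). *Ccnd3* (ENSMUSG00000034165, chr17:47505051-47599691, + strand), the D-type cyclin linked to terminal muscle differentiation, had signals of 391, 421 and 353 in Sirt6mKO and of 608, 575 and 509 in Ctrl, and here all Sirt6mKO libraries lay well below all controls. Its log2 fold change was -0.54 (SE 0.12, 0.689-fold, adjusted p = 0.021 with limma and Benjamini-Hochberg adjustment). *Ccnd2*, the remaining D-type cyclin, was close to the detection limit with 2, 7 and 4 in Sirt6mKO and 1, 2 and 5 in Ctrl.

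These calls were narrow. Without Sirt6mKO replicate 3, *Ccnd1* had a log2 fold change of -1.14 and an adjusted p of 0.00065 (limma, Benjamini-Hochberg) and passed both thresholds, whereas without Sirt6mKO replicate 1 or 2 or any one Ctrl replicate its adjusted p was 0.06 to 0.2. *Ccnd3* kept an adjusted p of 0.02 without Ctrl replicate 3 and had 0.05 to 0.099 without any other library, each above the threshold before rounding. The direction stayed the same in every one of these fits. With a robust empirical Bayes step, *Ccnd1* had an adjusted p of 0.085 (limma, Benjamini-Hochberg). Exons of both genes overlap a gene on the other strand, *LTO1* for *Ccnd1* and *Bysl* for *Ccnd3*, and per the methods reads that fell on several genes were not counted.

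Added up per kb of exon, the 3 D-type cyclins reached 126, 123 and 187 in Sirt6mKO and 246, 248 and 218 in Ctrl. All Sirt6mKO libraries were below all controls, which follows from the separate groups of *Ccnd1* and *Ccnd3* and is not a further result. The share of *Ccnd1* in this sum was 64.5, 60.5 and 78.2% in Sirt6mKO, on both sides of the narrow range of 71.8, 73.5 and 73.1% in Ctrl. The 2 genes thus did not fall in a fixed proportion in single Sirt6mKO libraries.

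**Figure D3:**
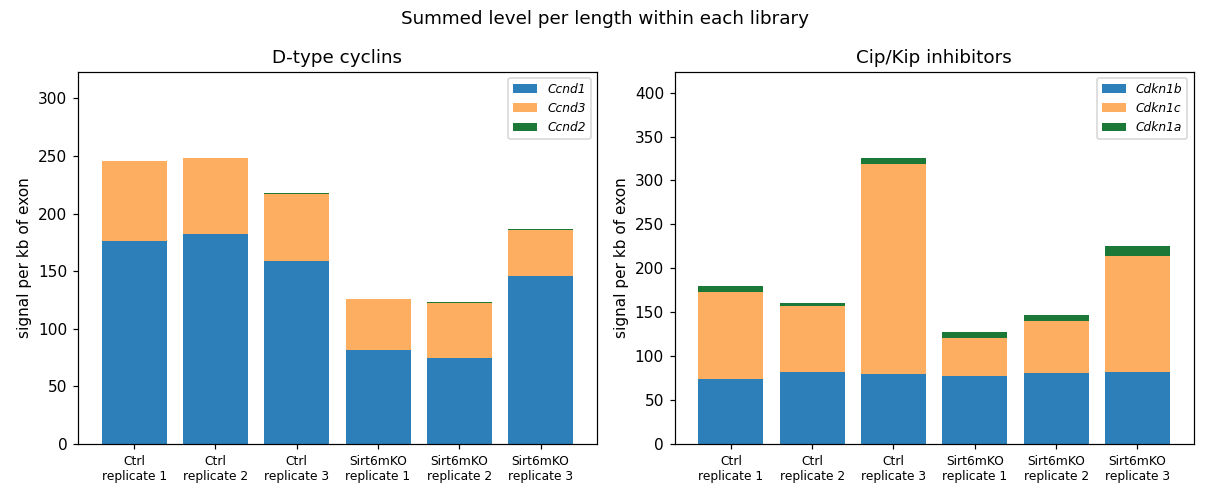
Signal per kb of exon, summed over the D-type cyclins (left) and the Cip/Kip inhibitors (right) in each library, with the parts of single genes stacked. The D-type sum is 123 to 187 in Sirt6mKO and 218 to 248 in Ctrl, as follows from the separate groups of *Ccnd1* and *Ccnd3*. The Cip/Kip sums of both groups overlap and differ mainly in the *Cdkn1c* part.

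The promoter of *Ccnd3* is shown because it was the D-type cyclin with the smallest adjusted p and RefSeq (GRCm38.p6) gives a promoter for it at 2 start sites. Bases are the 250 before each start, on the + strand of chromosome 17, at chr17:47504801-47505050 for the upstream start and chr17:47593217-47593466 for the downstream one, which lies 88416 bases inside the gene. Capitals mark CCAAT boxes, a FOXO site with the letters GTAAACA, and GC boxes with the letters GGGCGG, each searched for on both strands.
Ccnd3, upstream start: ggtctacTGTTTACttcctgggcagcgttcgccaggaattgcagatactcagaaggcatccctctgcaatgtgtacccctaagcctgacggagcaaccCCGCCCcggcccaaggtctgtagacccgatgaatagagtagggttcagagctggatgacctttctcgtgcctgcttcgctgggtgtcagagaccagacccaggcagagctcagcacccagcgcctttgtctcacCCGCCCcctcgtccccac
Ccnd3, downstream start: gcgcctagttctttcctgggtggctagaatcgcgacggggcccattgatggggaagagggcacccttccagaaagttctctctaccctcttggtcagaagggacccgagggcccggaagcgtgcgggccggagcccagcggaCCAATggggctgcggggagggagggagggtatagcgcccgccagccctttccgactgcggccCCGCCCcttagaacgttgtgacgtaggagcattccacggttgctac
The upstream promoter held GC boxes at 152 and 18 bases before the start and the FOXO letters at 243, and the downstream one held a CCAAT box at 108 and a GC box at 46. A promoter was matched for 41 of the 51 members (46 promoters, each 250 bases before to 50 after a start). GC boxes were in 36 of these 46 promoters (78.3%), against 62.3% of the 12486 promoters of tested genes, CCAAT boxes in 43.5% against 38.0%, and the FOXO letters in 4.35% against 2.48%. Such matches are letters in a window and were not measured as bound sites. Members without an entry were *Ccna2*, *Ccnd1*, *Ccnd2*, *Ccne2*, *Ccnh*, *Ccny*, *Cdk17*, *Cdk19*, *Cdk5* and *Cdkn1c*.

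Among the kinases of the cell cycle, none of 4 passed the test. *Cdk4*, a partner of D-type cyclins, had signals of 191, 157 and 177 in Sirt6mKO and of 166, 198 and 147 in Ctrl, and the groups overlapped. Its log2 fold change was 0.04 with a 95% interval from -0.27 to 0.36. *Cdk6*, the second partner, is described although it was picked after its values were seen, and had 51, 53 and 74 in Sirt6mKO and 68, 102 and 122 in Ctrl. Sirt6mKO replicate 3 exceeded Ctrl replicate 1, and the log2 fold change of -0.68 (SE 0.23) had an adjusted p of 0.12 (limma, Benjamini-Hochberg), which became 0.031 without Ctrl replicate 1. *Cdk6* contributed 5.84, 7.27 and 8.85% of the joint *Cdk4* and *Cdk6* level per kb in Sirt6mKO and 8.69, 10.7 and 16.2% in Ctrl. Together, both kinases reached 62.4, 52.1 and 59.8 signal per kb in Sirt6mKO and 56.0, 68.2 and 54.0 in Ctrl. The D-type cyclins were hence lower in libraries in which the summed level of their kinases overlapped with that of Ctrl. *Cdk2*, the partner of E- and A-type cyclins, had 102, 126 and 135 in Sirt6mKO and 119, 138 and 197 in Ctrl (log2 fold change -0.30, adjusted p = 0.45, limma, Benjamini-Hochberg).

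Of the Cip/Kip inhibitors, which block cyclin-CDK2 complexes and stabilise or inhibit D-type complexes, none of 3 passed the test. *Cdkn1b*, encoding p27, was the steadiest of them with signals of 350, 366 and 374 in Sirt6mKO and 335, 372 and 362 in Ctrl. The 95% interval of its fold reached from 0.869 to 1.20, the narrowest of the inhibitors. *Cdkn1a*, encoding the p53 target p21, had 22, 25 and 43 in Sirt6mKO and 26, 14 and 25 in Ctrl. Only Sirt6mKO replicate 3 exceeded all controls, and the log2 fold change of 0.44 had an adjusted p of 0.53 (limma, Benjamini-Hochberg). *Cdkn1c* varied most within both genotypes, with 90, 122 and 268 in Sirt6mKO and 203, 153 and 488 in Ctrl. Replicate 3 was the highest in each genotype, and the log2 fold change of -0.78 (SE 0.40) had an adjusted p of 0.34 (limma, Benjamini-Hochberg). The Cip/Kip sum per kb was 127, 147 and 226 in Sirt6mKO and 180, 161 and 326 in Ctrl. Divided by the D-type sum, this gave 1.01, 1.19 and 1.21 in Sirt6mKO and 0.735, 0.647 and 1.498 in Ctrl. The ratio of inhibitors to D-type cyclins overlapped, because Ctrl replicate 3 had the highest value of all libraries. Exons of *Cdkn1a* and *Cdkn1c* overlap a transcript of another gene on the other strand.

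INK4 inhibitors bind CDK4 and CDK6 and displace D-type cyclins. *Cdkn2c*, encoding p18, had signals of 29, 30 and 22 in Sirt6mKO and of 47, 34 and 43 in Ctrl. All Sirt6mKO values were below all controls, yet the log2 fold change of -0.60 (SE 0.24) had an adjusted p of 0.20 (limma, Benjamini-Hochberg). *Cdkn2d*, encoding p19, had 24, 25 and 33 in Sirt6mKO and 30, 17 and 20 in Ctrl, with an adjusted p of 0.64 (limma, Benjamini-Hochberg). *Cdkn2b*, encoding p15, was scarce with 9, 9 and 5 in Sirt6mKO and 1, 6 and 0 in Ctrl. Its log2 fold change depended on the pseudocount, with 1.81 at 1, 3.10 at 0.1 and 0.86 at 5, and its adjusted p was 0.18 (limma, Benjamini-Hochberg). *Cdkn2a*, the senescence gene that encodes p16 and ARF, had signals of 0, 1 and 0 in Sirt6mKO and 1, 1 and 0 in Ctrl and was not detectable above the limit of 3 reads in any library.

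**Figure D4:**
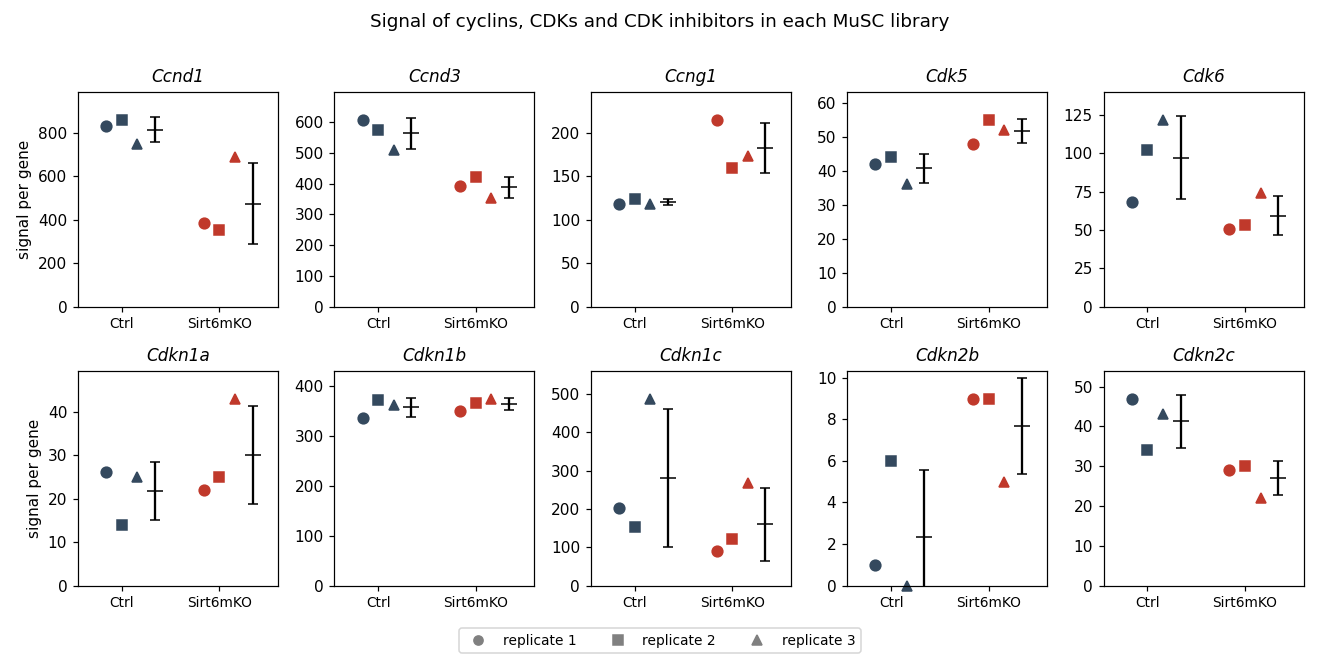
Signal of 10 members in each library of Ctrl (dark) and Sirt6mKO (red), with a circle, square or triangle for replicate 1, 2 or 3 and the mean ± SD (n = 3) as bars beside the points. The groups are apart in *Ccnd1*, *Ccnd3*, *Ccng1*, *Cdk5* and *Cdkn2c*, the *Cdkn1b* values of both groups lie between 335 and 374, and replicate 3 is the highest in each group of *Cdkn1c*.

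E- and A-type cyclins, which act at the start of and during DNA replication, were low and were not called. *Ccna2* had signals of 4, 14 and 26 in Sirt6mKO and of 17, 17 and 22 in Ctrl, and *Ccne1* had 7, 7 and 11 against 4, 5 and 9. For *Ccna2*, the Sirt6mKO libraries thus spanned a wider range than the controls on both sides.

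The same held for mitotic genes. *Ccnb2*, a B-type cyclin, had 7, 7 and 20 in Sirt6mKO and 20, 14 and 18 in Ctrl (log2 fold change -0.72, SE 0.41, adjusted p = 0.40, limma, Benjamini-Hochberg). *Ccnb1* had 6, 9 and 8 in Sirt6mKO and 9, 8 and 18 in Ctrl, and *Ccnf*, the F-box cyclin of a ubiquitin ligase, had 5, 4 and 7 against 7, 7 and 7. *Cdk1* had 3, 2 and 14 in Sirt6mKO and 6, 6 and 9 in Ctrl. Summed, *Ccna2*, *Ccnb1*, *Ccnb2* and *Cdk1* reached a signal of 20, 32 and 68 in Sirt6mKO and of 52, 45 and 67 in Ctrl. Sirt6mKO replicates 1 and 2 lay below all controls in this sum, and replicate 3 above them.

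Other genes of dividing cells did not move alike. A list of 28 genes of replication licensing and DNA synthesis had a summed signal of 1861, 1767 and 2050 in Sirt6mKO and of 1758, 1745 and 2053 in Ctrl, and the groups overlapped. A list of 16 mitosis genes had a summed signal of 140, 233 and 492 in Sirt6mKO and of 621, 286 and 470 in Ctrl. Of its 12 tested genes, 3 were above and 9 below 0 with 0 past the adjusted p (limma, Benjamini-Hochberg) and a median log2 fold change of -0.50. *Bub1b* was among those above 0, with 36, 23 and 53 in Sirt6mKO and 25, 12 and 22 in Ctrl. Without Sirt6mKO replicate 3, 3 of 11 tested genes of this list passed, all of them lower, against 1.17% of all tested genes that were lower. These were *Mki67*, *Top2a* and *Cenpf*, at log2 fold changes of -1.93, -1.57 and -2.53 and adjusted p of 0.02, 0.033 and 0.026 (limma, Benjamini-Hochberg). The library left out was the highest Sirt6mKO library for all 3 genes. Without any other single library, their adjusted p was 0.16 to 0.53, 0.25 to 0.71 and 0.11 to 0.45, respectively. *Mki67*, the proliferation antigen, which was chosen after its values were seen, had 30, 76 and 182 in Sirt6mKO and 289, 119 and 186 in Ctrl. With all libraries its log2 fold change was -1.30 and its adjusted p 0.17 (limma, Benjamini-Hochberg). *Myog*, the differentiation factor of committed myoblasts, chosen in the same way, had 22, 58 and 139 in Sirt6mKO and 137, 107 and 208 in Ctrl (log2 fold change -1.35, adjusted p = 0.15, limma, Benjamini-Hochberg), while other genes of myogenic commitment moved in both directions, as given with the cell type lists. Replicate 3 was the highest Sirt6mKO library for *Ccnd1*, *Cdkn1a*, *Cdkn1c*, *Ccna2*, *Ccnb2*, *Cdk1*, *Mki67* and *Myog*, but not for all members. It was the lowest Sirt6mKO library for *Ccnd3* (391, 421 and 353), *Cdkn2c* (29, 30 and 22) and *Cdkn2b* (9, 9 and 5). For *Ccnb1* (6, 9 and 8), replicate 2 was the highest. With all libraries, 0 genes of the mitosis list passed the adjusted p, so a lower level of these genes was not established. Fewer cycling cells and less RNA of these genes per cell could in any case not be told apart in bulk samples.

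Promoters of *Ccnb2* and *Cdk1* are shown as the mitotic pair that varied most between Sirt6mKO libraries. They are the 200 bases before the RefSeq start (GRCm38.p6) on the minus strand, at chr9:70421555-70421754 for *Ccnb2* and chr10:69352913-69353112 for *Cdk1*. Capitals mark CCAAT boxes, GC boxes, the CHR element (TTTGAA or else TTCGAA) and an E2F site (the letters TTTCCCGC or the letters TTTGGCGC or the letters TTTCGCGC), again on both strands, and no match overlaps another. The last 26 bases of *Cdk1* lie inside the annotated gene, whereas the *Ccnb2* bases all lie upstream of it.
Ccnb2: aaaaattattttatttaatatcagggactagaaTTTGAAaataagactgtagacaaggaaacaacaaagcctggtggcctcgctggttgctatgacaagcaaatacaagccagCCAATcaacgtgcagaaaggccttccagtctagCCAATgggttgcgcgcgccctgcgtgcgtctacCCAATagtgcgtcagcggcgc
Cdk1: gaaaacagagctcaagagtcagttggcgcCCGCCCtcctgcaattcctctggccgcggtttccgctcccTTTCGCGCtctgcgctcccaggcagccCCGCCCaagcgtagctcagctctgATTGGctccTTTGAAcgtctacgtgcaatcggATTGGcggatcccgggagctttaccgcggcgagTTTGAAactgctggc
*Ccnb2* held 3 CCAAT boxes in the last 100 bases, at 87, 54 and 21 bases before the start, and a CHR match at 167. A further CHR match of *Ccnb2* began at base 5 from the start, beyond the bases shown but within the counted window. *Cdk1* held CCAAT boxes at 80 and 48, CHR matches at 71 and 15 and an E2F site at 131. CHR letters were found in 6 of the 46 promoters of members (13.04%), against 13.8% of promoters of tested genes, and E2F letters in 3 (6.52%), against 3.43%.

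*Ccng1* (ENSMUSG00000020326, chr11:40748552-40755311, minus strand) encodes cyclin G1, a transcriptional target of p53 that recruits a phosphatase to MDM2. Sirt6mKO replicates 1 to 3 had signals of 215, 160 and 173, and the Ctrl replicates had 118, 124 and 118. All Sirt6mKO libraries were above all controls, which lay close together. The log2 fold change was 0.59 (SE 0.14, 1.51-fold, adjusted p = 0.034 with limma and Benjamini-Hochberg adjustment). Leaving out any 1 library brought the adjusted p to between 0.061 and 0.19, at log2 fold changes from 0.47 to 0.68. No exon of *Ccng1* overlaps another gene. Of 14 tested genes of the p53 axis, 8 were above and 6 below 0 (median log2 fold change 0.03), and 0 passed the adjusted p (limma, Benjamini-Hochberg). No target of p53 on that list was therefore called beside *Ccng1*. *Phlda3* came nearest, with 77, 81 and 60 in Sirt6mKO and 54, 44 and 43 in Ctrl. Its log2 fold change was 0.61 (adjusted p = 0.098, limma, Benjamini-Hochberg), and its groups did not overlap.

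The promoter of *Ccng1* is the counterpart of the D-type promoter above, for the 1 member that was higher. Shown are 250 bases before the RefSeq start (GRCm38.p6) on the minus strand, at chr11:40755287-40755536, of which the last 25 lie inside the annotated gene. Capitals mark CCAAT boxes.
Ccng1: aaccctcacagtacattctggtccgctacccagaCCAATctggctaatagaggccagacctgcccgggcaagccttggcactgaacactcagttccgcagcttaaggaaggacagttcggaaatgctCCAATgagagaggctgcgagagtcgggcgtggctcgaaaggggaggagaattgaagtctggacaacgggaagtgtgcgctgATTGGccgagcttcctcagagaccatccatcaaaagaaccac
CCAAT boxes were at 216, 123 and 42 bases before the start.

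The other 5 tested atypical cyclins were not called, with log2 fold changes from -0.07 to 0.20. *Ccni* had 536, 535 and 538 in Sirt6mKO and 485, 685 and 534 in Ctrl. *Ccny*, a membrane-bound partner of CDK14 and CDK16 in Wnt signalling, had 277, 251 and 281 against 301, 276 and 258. *Ccng2*, the paralog of *Ccng1*, had 172, 165 and 196 against 140, 195 and 163, with a 95% interval of its log2 fold change from -0.21 to 0.43.

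Cyclins of transcription and splicing were detected without exception and were not called in any of 7 cases, with a median log2 fold change of -0.04. *Ccnl2* had signals of 809, 858 and 680 in Sirt6mKO and of 777, 815 and 834 in Ctrl. Its paralog *Ccnl1* had 626, 735 and 777 in Sirt6mKO and 539, 508 and 683 in Ctrl. For *Ccnl1* only Ctrl replicate 3 reached into the Sirt6mKO range, and the log2 fold change of 0.31 (SE 0.13) had an adjusted p of 0.24 (limma, Benjamini-Hochberg). *Ccnt1*, the cyclin of the elongation factor P-TEFb, had a 95% interval of its log2 fold change from -0.31 to 0.16.

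CDKs of transcription were equally not called in any of 8 cases, with log2 fold changes from -0.32 to 0.08. *Cdk11b*, the partner of L-type cyclins, had 265, 267 and 187 in Sirt6mKO and 317, 201 and 235 in Ctrl. *Cdk12*, an elongation kinase with cyclin K, had 340, 419 and 378 against 379, 359 and 384, and the small positive difference turned to -0.0031 with library size scaling. *Cdk10*, a cyclin M-dependent kinase, had 64, 60 and 49 in Sirt6mKO and 85, 67 and 65 in Ctrl. Its groups were 1 unit of signal apart, and its adjusted p was 0.40 (limma, Benjamini-Hochberg).

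The remaining tested CDKs include the neuronal kinase *Cdk5* and the PCTAIRE and PFTAIRE kinases. *Cdk5* had 48, 55 and 52 in Sirt6mKO and 42, 44 and 36 in Ctrl, with no overlap. The log2 fold change was 0.34 (SE 0.19) with an adjusted p of 0.39 (limma, Benjamini-Hochberg). *Cdk17*, a PCTAIRE kinase, had 167, 162 and 180 in Sirt6mKO and 199, 181 and 258 in Ctrl, again without overlap but with only 1 unit of signal between the groups. Its log2 fold change was -0.31 (SE 0.15) with an adjusted p of 0.29 (limma, Benjamini-Hochberg). The most abundant kinases of this group per kb, *Cdk16* and *Cdk14*, had 197, 214 and 227 against 205, 193 and 210, and 666, 758 and 826 against 825, 839 and 843, respectively. Neither was called.

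Genes that act around the members were mostly not called either. In the lists of pocket proteins, E2F and DREAM (17 tested genes), replication licensing and DNA synthesis (26), CDK phosphorylation and binding partners (10) and ubiquitin ligases of cyclins and inhibitors (18), 0 genes passed the adjusted p in either direction (limma, Benjamini-Hochberg), with median log2 fold changes of -0.08, -0.10, -0.11 and 0.06. *E2f2*, an activator of S phase genes and chosen after its values were seen, was nearest among the pocket protein and E2F genes, with 47, 43 and 51 in Sirt6mKO and 60, 87 and 104 in Ctrl. The groups did not overlap, and the adjusted p was 0.057 (limma, Benjamini-Hochberg) and 0.014 without Ctrl replicate 1. It was also past the threshold with robust empirical Bayes (0.048), with voom on approximate reads (0.048) and with the replicate block (0.04), which brings the count of this list from 0 to 1 in each. Of 13 partners of P-TEFb and the Mediator kinase, *Ell2*, a subunit of the super elongation complex, passed, with 99, 115 and 107 in Sirt6mKO and 63, 26 and 39 in Ctrl. Its log2 fold change was 1.39 (SE 0.26, adjusted p = 0.0095, limma, Benjamini-Hochberg), next to *Cdk9* and *Ccnt1*, which were not called. Without Sirt6mKO replicate 1 or 2, the adjusted p of *Ell2* was 0.06 and 0.072, respectively.

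The samples expressed the defining genes of MuSCs at high levels, and other genes than cyclins moved with genotype in the same libraries. The 17 genes of quiescent MuSCs summed to 19836 to 23550 in Sirt6mKO and 20766 to 23927 in Ctrl, with 8 of them above and 9 below 0. Of these, *Pax7*, the factor that defines MuSCs, was lower (1841, 2307 and 1810 against 4066, 3449 and 3150), as was *Chrdl2* (500, 453 and 326 against 943, 1019 and 767), whereas *Cd34*, a surface protein used in the sort, was higher (690, 855 and 882 against 439, 605 and 563). Their log2 fold changes were -0.84, -1.10 and 0.60 (adjusted p = 0.0041, 0.0021 and 0.031, limma, Benjamini-Hochberg). Genes of myogenic commitment had sums of 4396 to 5314 in Sirt6mKO and 4053 to 4707 in Ctrl, and 3 of 7 tested passed the adjusted p. *Myod1*, the factor of activated MuSCs, was lower (79, 80 and 75 against 93, 184 and 169), and *Myf6* (34, 21 and 35 against 9, 6 and 7) and *Des*, a muscle intermediate filament, were higher (2483, 2026 and 2433 against 1516, 1794 and 1309). Their log2 fold changes were -0.86, 1.88 and 0.59 (adjusted p = 0.045, 0.0068 and 0.026, limma, Benjamini-Hochberg). *Sirt6* itself had 19, 20 and 13 in Sirt6mKO and 18, 17 and 20 in Ctrl. Values per gene include exons outside the deleted part and do not check the labels. All 15 immediate early genes were above 0, 8 of them past the adjusted p (*Junb*, *Klf4*, *Jun*, *Egr1*, *Fos*, *Ier3*, *Egr2* and *Ier2*; limma, Benjamini-Hochberg), with a summed signal of 16843 to 19552 in Sirt6mKO and 10165 to 12743 in Ctrl. Of 11 myofiber genes, 10 were above 0 and 4 past the adjusted p (*Ttn*, *Mylpf*, *Neb* and *Acta1*, all higher). The 11 genes summed to 2692, 3011 and 1376 in Sirt6mKO replicates 1 to 3 and to 1085, 839 and 1145 in Ctrl. Sirt6mKO replicate 3, the highest of its group for *Ccnd1*, was thus the lowest of its group in this sum. Fibroblast genes had sums of 9465 to 11560 against 6555 to 10220 (*Col1a2*, *Pdgfra* and *Col1a1* past the adjusted p, all higher, of 7 tested), tenocyte genes 60 to 1045 against 49 to 71, mural genes 565 to 659 against 547 to 681, and Schwann genes 50 to 107 against 80 to 116. Erythroid genes had sums of 13 to 60 against 23 to 545. Endothelial (24 to 38 against 12 to 38) and immune genes (40 to 81 against 43 to 76) were low. The endothelial *Cldn5* and *Tie1* were at 0 in 5 of 6 libraries. However, *Pecam1* had 22, 27 and 24 in Sirt6mKO and 11, 4 and 29 in Ctrl. *Cdh5* had 1, 7 and 3 against 1, 2 and 5, and *Kdr* had 1, 4 and 2 against 0, 3 and 4. No values were available for *Emcn*. Only 3 of the 7 immune genes had values, *Cd68*, *Lyz2* and *Cd79a*, but not *Ptprc*, *Adgre1*, *C1qa* and *Cd3e*. *Cd68* was the highest of these in every library. The part of these differences in the lower *Ccnd1* and *Ccnd3* and the higher *Ccng1* was not tested.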

How the data were processed

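RNA-seq libraries of 3 Sirt6mKO and 3 Ctrl MuSC samples were analysed. Per the labels, ribosomal RNA was depleted with RiboGone and libraries were made with a stranded SMARTer kit, whereas the methods name RiboMinus and an Ion Total RNA-Seq kit. Alignment to GRCm38 (STAR) and assignment of reads to exons (featureCounts) were done by the authors, who dropped reads on several genes or positions. Use of strand in counting is not given in the sources used here. No unit is given for the deposited signal. It consists of whole numbers that the authors apparently obtained from reads divided by a size factor per library (0.558 to 1.37, inferred from the spacing of low values) and rounded.

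Signal was tested as log2(signal + 1) with limma 3.58.1 (limma-trend, R 4.3.3) over genes with a mean of at least 5, with Benjamini-Hochberg adjustment. Fold changes on this scale understate changes of low genes. Members, lists and tests were chosen with earlier results of these data known. Genes named are all inhibitors and D-type cyclins, members past the adjusted p or with separate groups, the 2 highest per kb of each role, and list genes past the adjusted p. *Cdk6*, *Cdk1*, *Cdk9*, *Ccnf*, *Ccng2*, *Ccnt1*, *E2f2*, *Mki67*, *Top2a*, *Cenpf*, *Bub1b*, *Myog*, *Phlda3*, *Col3a1*, *Cldn5*, *Tie1*, *Pecam1*, *Cdh5*, *Kdr* and *Cd68* were chosen after their values were seen. Exon lengths and overlaps came from GENCODE vM21, which holds all 51 members at the same positions, and promoters from RefSeq (GRCm38.p6). The fit was tested on simulated data. Same-numbered samples of both genotypes did not deviate together throughout (correlations 0.055, 0.046 and 0.236).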

Additional observations from a re-analysis of the deposited data

How the results depend on the processing

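At an adjusted p of at most 0.05 in limma fits, the same calls (*Ccng1* higher, *Ccnd1* and *Ccnd3* lower) were made with median-of-ratios, upper quartile and library size scaling, with pseudocounts of 0.1 and 5, with a mean of at least 50 and with voom on approximate reads. Members that were higher fell to 0 and those that were lower to 1 (*Ccnd3*) without a filter on low values (25166 genes tested, 1.06% higher and 0.739% lower), and both fell to 0 at an adjusted p of 0.01. Robust empirical Bayes left 1 lower member (*Ccnd3*), against 2.02% of all tested genes, and *Ccnd1* had an adjusted p of 0.085. With the replicate block, 4 members were lower, *Ccnd1*, *Ccnd3*, *Cdk6* (adjusted p = 0.043) and *Cdkn1c* (adjusted p = 0.017), against 2.34% of all tested genes, though the samples share only a number and not every sample pair deviated together. The cause of these shifts was not tested. Leaving out 1 library gave 0 to 0 higher members, against 0.894 to 3.11% of all tested genes, and 0 to 1 lower ones, against 0.743 to 1.68%. The lower call was *Ccnd1* without Sirt6mKO replicate 3, *Cdk6* without Ctrl replicate 1 and *Ccnd3* without Ctrl replicate 3. With both thresholds, 0 to 1 members were lower (*Ccnd1* without Sirt6mKO replicate 3). With 1 library left out, members with separate groups numbered 3 to 5 higher (6.82 to 11.4%, against 15.2 to 16.6% of all tested genes) and 5 to 12 lower (11.4 to 27.3%, against 13.9 to 16.0%). Without Sirt6mKO replicate 3, 12 of 44 (27.3%) were lower, against 14.3% of all tested genes, and without Ctrl replicate 1 it was 8 (18.2%), against 15.6%. At a mean of at least 50, 1 member with separate groups was higher and 4 were lower. The share of all tested genes with separate groups was not determined at this filter, so these counts have no background.

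Signs changed only for members that were not called. Leaving out 1 library moved the log2 fold change of *Ccnl2* between -0.12 and 0.044, *Ccni* between -0.17 and 0.076, *Ccnt2* between -0.13 and 0.041, *Cdk13* between -0.081 and 0.17, *Cdk12* between -0.0603 and 0.09, *Cdkn1b* between -0.015 and 0.0605, *Ccny* between -0.098 and 0.013, *Cdk11b* between -0.21 and 0.12, *Cdk4* between -0.055 and 0.16, *Ccng2* between -0.0089 and 0.23, *Cdk19* between -0.018 and 0.088, *Ccnk* between -0.14 and 0.033, *Ccnj* between -0.17 and 0.46, *Ccna2* between -1.17 and 0.043 and *Ccne2* between -0.10 and 0.64, and library size scaling moved *Cdk12* to -0.0031. Scaling shifted the median of all genes by at most 0.0176 on the log2 scale. At most 9 reads per library lie behind the 7 members that were not tested, and differences in these were not detectable at this depth.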
